A study of Mus musculus with 10 samples.

Results

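The step from day 3 to day 5 of reprogramming with Oct4, Klf4 and Sox2 (OKS) was followed in mouse embryonic fibroblasts (MEFs) that carried FoxO6 or the fluorescent protein DsRed beside the 3 factors. The members are the 4 libraries of these days among the 10 libraries of the time course, 1 library for each of the 2 arms at days 0, 1, 3, 5 and 7. OKS + DsRed is the control arm and OKS + FoxO6 carries the forkhead factor under test. The question was which genes moved in one direction in both arms between these days, and not how the arms differed. All the cells were MEFs from embryos at E13.5, of the cross labelled CBA/CaJ X C57BL/6J, infected with retroviruses made in PlatE cells and kept in iCD1 medium. The methods of the study describe MEFs with an Oct4-GFP reporter, and cells infected by retrovirus are as a rule a mixture with unequal factor doses. The labels give no replicate number and do not say whether the days of an arm were separate cultures.

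Retroviral OKS reprogramming begins with loss of the fibroblast programme and a mesenchymal-to-epithelial transition, in which matrix and contractile genes go down and E-cadherin and other junction genes go up. Genes of the pluripotency network are switched on later and in part of the cells. Interferon-stimulated genes form a separate programme, in which receptors on the cell surface signal through Jak kinases to transcription factors that turn on antiviral effectors, immunity GTPases and the machinery of class I antigen presentation.

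The libraries of OKS + DsRed held 1464719 expected counts on day 3 and 1357802 on day 5, and those of OKS + FoxO6 held 1984854 and 2059623. Foxo6, on chromosome 4 of GRCm38 from 120267079 to 120287349, had 3 and 4 reads at days 3 and 5 in OKS + DsRed and 3375 and 3277 reads in OKS + FoxO6, as the labels of the arms say. The 9 defining fibroblast markers examined all had reads in the 4 libraries. Their summed TPM (a level scaled for transcript length and library size) went from 4133 to 2368 over the step in OKS + DsRed and from 3897 to 3037 in OKS + FoxO6. In bulk RNA, fewer cells of a type and less RNA per cell cannot be told apart, and this holds for every value below.

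Of 11454 genes tested, 136 were higher at day 5 than at day 3 in both arms (1.19% of those tested) and 38 were lower (0.332%). The test was edgeR's quasi-likelihood test with the arm as a block and an adjusted p under 0.05, and a gene was counted only when both arms moved in the same direction. Ranked by the change in the arm that changed less, the genes that rose were led by Sall4, Gm6741, Cyp2b23, Bhmt2, Epsti1, Apol9b, Dmgdh, Saxo1, Slc35f2, Gm12250, Epcam and H2-Q7. Those that fell were led by Gm13835, Tpm2, Slc6a17 and Itgbl1. Without regard to the test, 191 genes were at least 2-fold higher in each arm, 1.67% of the genes tested, and 58 were at least 2-fold lower, 0.506%. Of the genes called, 100 higher and 19 lower genes also passed this 2-fold limit in each arm. The median log2 change of all tested genes was 0.00 in both arms. With the trend of counts with transcript length removed, 261 genes were higher and 170 lower, so that lower genes made up 39.4% of the calls in place of 21.8%.

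The calls rest on 4 libraries with 1 residual degree of freedom, and their spread is the disagreement between the arms, borrowed across genes. DESeq2 called 65 higher and 10 lower genes and limma-voom 128 and 40, and 62 higher and 9 lower genes were called by all the 3 tools. With all 10 libraries in the fit, 14 higher genes and 1 lower gene passed. When one of the 4 libraries was left out of that fit, 0 genes passed without OKS + DsRed day 3, 0 without OKS + DsRed day 5 and 0 without OKS + FoxO6 day 3, with 692, 342 and 548 genes at an unadjusted p under 0.05 in edgeR. Without OKS + FoxO6 day 5, 7 genes passed, all higher. Of the leading genes named above, Saxo1, Tpm2, Slc6a17 and Itgbl1 were called by neither DESeq2 nor limma-voom, nor in the fit of all 10 libraries. For the genes the account turns on, the reads or TPM of every library of the step are therefore given.

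**Figure D1:**
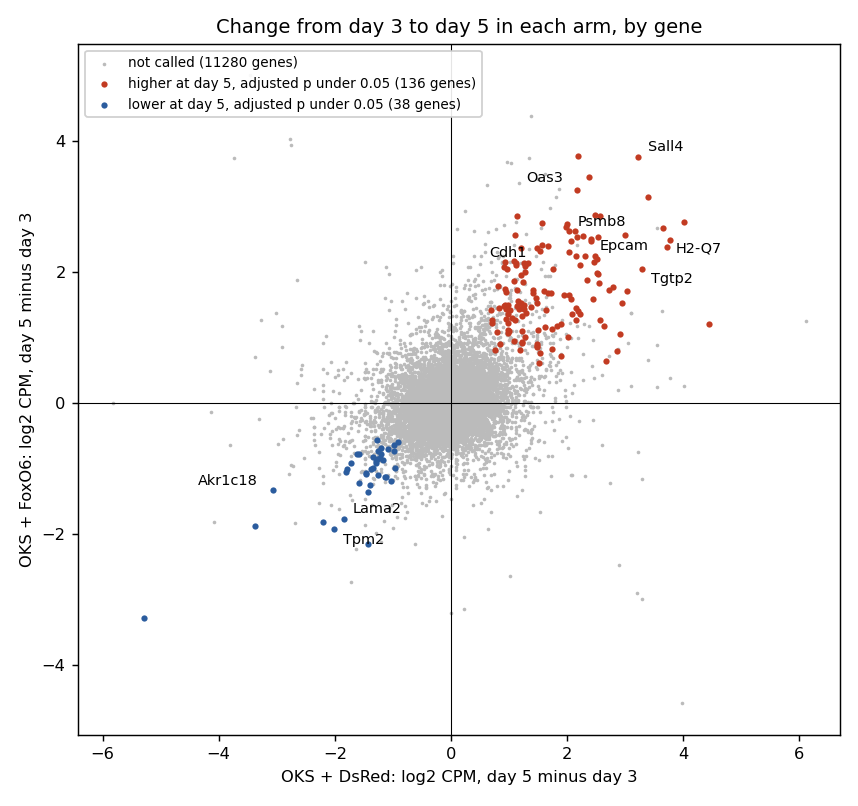
Each point is 1 of the 11454 genes tested, with its log2 CPM (counts scaled to library size) at day 5 minus day 3 in OKS + DsRed on the x axis and in OKS + FoxO6 on the y axis. The 136 genes called higher lie in the upper right and the 38 called lower in the lower left, and the bulk of the genes lies around 0 on both axes.

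The genes called were next read in the libraries of days 1 and 7, which the contrast did not use. Of the 136 genes that rose, 119 (87.5%) were at least 2-fold higher at day 7 than at day 1 in log2(TPM + 1) in both arms, against 4.64% of all genes tested, and 0 were 2-fold lower in both. Of the 38 genes that fell, 31 (81.6%) were at least 2-fold lower at day 7 than at day 1 in both arms, against 4.76% of all genes tested. The median difference between days 7 and 1 was 3.83 in OKS + DsRed and 2.97 in OKS + FoxO6 for the genes that rose, and −2.53 and −2.27 for those that fell. The libraries are different ones, but the days of an arm may share a culture. The span from day 1 to day 7 also holds the step from day 1 to day 3. A gene that changed before day 3 can therefore pass, and these shares do not test the step from day 3 to day 5.

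Genes of the interferon response gave the most calls among the lists examined. In the list of interferon gamma targets and antigen presentation, 19 of 31 genes tested were called higher and 0 lower, with a median log2 change of 1.37 against 0.00 over all genes. In the list of the type I interferon response, 11 of 32 were called higher and 0 lower, with a median of 1.34. By arm, the first list had a median of 1.23 under OKS + DsRed and 1.89 under OKS + FoxO6, and the second 0.90 and 1.60. Together these 30 genes were 30 of the 136 that rose. Of the 30, 21 had the larger change in OKS + FoxO6 and 9 in OKS + DsRed, and this difference was not tested. Some day 3 values in OKS + FoxO6 rest on few reads, such as 1 for Psmb9, 1 for Iigp1 and 3 for Psmb8. DESeq2 called 13 of the 19 and 6 of the 11, and limma-voom 18 and 10, while the 10-library fit kept 1 of the 19 and 0 of the 11. The medians depended on single libraries. Without OKS + DsRed day 3, in the fit with the other 9 libraries, they were 2.32 and 2.19, without OKS + DsRed day 5 the first was 0.86, and without OKS + FoxO6 day 3 the second was 0.62.

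The immunity-related and guanylate-binding GTPases, which act on membranes around intracellular pathogens, gave 9 calls among 14 genes tested. Tgtp2 (T cell-specific GTPase 2, chromosome 11, 49057194 to 49064206, minus strand) went from a TPM of 46.3 to 335.7 in OKS + DsRed and from 1.31 to 10.6 in OKS + FoxO6. Its log2 change was 3.24 ± 0.23 (SE) with an edgeR adjusted p of 0.0011. Both arms moved up, from levels that differed widely between the arms, and 4 reads carry the day 3 value in OKS + FoxO6. Igtp (chromosome 11, 58199556 to 58207591) had a TPM of 138 and 434.5 in OKS + DsRed and 8.38 and 49.8 in OKS + FoxO6, a log2 change of 1.92 ± 0.21 with an edgeR adjusted p of 0.0068. Ifi47 rose by 1.84 ± 0.26 and Iigp1 by 2.46 ± 0.39 on the log2 scale, the latter from 25 to 108 reads and from 1 to 19 reads. Of the guanylate-binding proteins, Gbp2, Gbp3 and Gbp7 rose by 1.37, 1.42 and 1.38, each with the larger change in OKS + FoxO6. Gbp9 rose by 1.30, with 1.22 in OKS + DsRed and 1.33 in OKS + FoxO6, and Gbp4 by 1.23, with 1.23 and 0.92, the larger in OKS + DsRed. Gbp4 and Gbp9 overlap each other on the same strand of chromosome 5, Igtp overlaps Irgm2, and Tgtp1 is a close copy of Tgtp2, so the division of reads within these pairs is uncertain.

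Class I antigen presentation gave the highest share of calls of any role in the 2 interferon lists, with 8 of 9 genes of the class I molecules and peptide loading called higher. H2-K1, a classical class I heavy chain (chromosome 17, 33996017 to 34000347), went from a TPM of 429.9 to 2518 in OKS + DsRed and from 126 to 299.9 in OKS + FoxO6. H2-D1, the other classical heavy chain, had 269 and 970.4 in OKS + DsRed and 138 and 218 in OKS + FoxO6. B2m, the light chain of all class I molecules, was the most abundant of the group, at 1942 and 5504 in OKS + DsRed and 1222 and 1891 in OKS + FoxO6. For these 3 genes the change was larger in OKS + DsRed, with a log2 CPM difference of 2.57 against 1.26 for H2-K1, 1.90 against 0.72 for H2-D1 and 1.51 against 0.62 for B2m. The difference between the arms was not tested. H2-T23 and H2-Q4, non-classical class I genes, rose by 1.37 ± 0.21 and 2.52 ± 0.24. H2-Q7 and H2-Q6, outside the list and named for their size, rose by 3.42 ± 0.27 and 4.35, with edgeR adjusted p of 0.0019 and 0.0034, but the Q genes are near-identical copies and the division of reads among them is uncertain.

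Genes of the steps before loading were also called. Tap1 and Tap2, the subunits of the peptide transporter, rose by 1.28 ± 0.17 and 1.29 ± 0.23, and Tapbp (tapasin), which holds the class I molecule at the transporter, by 1.05 ± 0.15. Psmb8 and Psmb9 are catalytic subunits of the immunoproteasome, which cuts peptides for class I, and were the 2 calls among 5 genes tested for this role. Psmb8 went from 62 to 240 reads in OKS + DsRed and from 3 to 32 in OKS + FoxO6, and Psmb9 from 22 to 121 and from 1 to 14. Psmb9, Tap1, Psmb8 and Tap2 are neighbours on chromosome 17, between 34181987 and 34216321, and Psmb9 and Tap1 overlap on opposite strands. Chromosome 17 held 17 of the 136 genes that rose (12.5%), against 4.92% of the genes tested.

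In the type I response, Stat2, a transcription factor that carries the signal to the nucleus, had a TPM of 162 and 299.8 in OKS + DsRed and 61.5 and 140.0 in OKS + FoxO6, a log2 change of 1.14 ± 0.18. Of the 24 antiviral effectors, 9 were called. The oligoadenylate synthetases, which make the signal that activates RNase L, included Oas1a, Oas2 and Oas3, with log2 changes of 1.20 ± 0.18, 1.98 ± 0.34 and 2.74 ± 0.36. Oas2 reached nearly the same level in both arms at day 5, 363 in OKS + DsRed and 395 in OKS + FoxO6, from 167 and 52.3 at day 3. Isg15, a ubiquitin-like modifier, had 88.7 and 218 in OKS + DsRed and 17.8 and 82.5 in OKS + FoxO6. Bst2 (tetherin), which holds budding virus at the membrane, had 277 and 605 in OKS + DsRed and 61.9 and 285 in OKS + FoxO6. Ifit1 and Ifit3, which bind viral RNA, and the nucleic acid sensor Zbp1 rose by 1.34 ± 0.24, 2.14 ± 0.40 and 1.54 ± 0.23. The RNA helicase sensors gave 0 calls among 3 genes in edgeR, at a median of 1.34, and Dhx58, one of these, had 1.81 ± 0.47 with an edgeR adjusted p of 0.13.

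**Figure D2:**
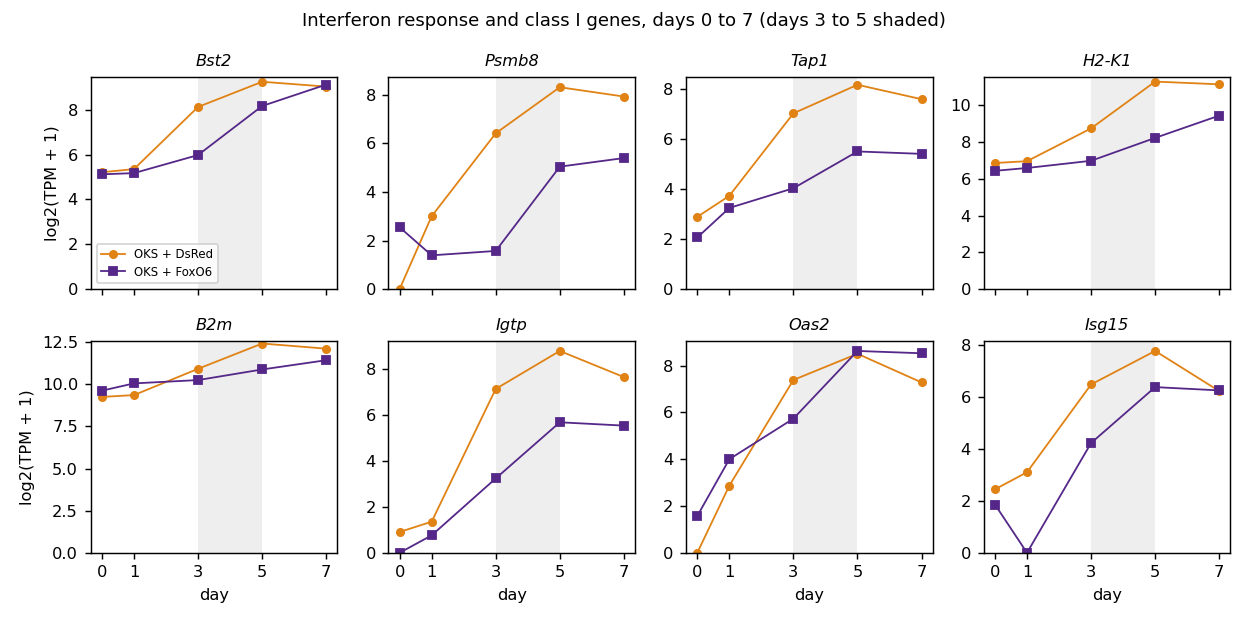
Level of 8 interferon response and class I genes as log2(TPM + 1) against the day, with 1 library for each point and each arm drawn as a line. Every one of the 8 genes is higher at day 5 than at day 3 in both arms, and in OKS + DsRed all are lower again at day 7 than at day 5.

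Further genes known as interferon-inducible were called outside the lists and are named after their values were seen. They include Ifitm3, an inhibitor of virus entry, with a TPM of 1214 and 1971 in OKS + DsRed and 542 and 1284 in OKS + FoxO6, and Rnf213, with 115 and 213 in OKS + DsRed and 32.6 and 101 in OKS + FoxO6. Parp9 and its partner Dtx3l rose by 1.28 and 1.03, and the ubiquitin enzymes of the Isg15 pathway Herc6 and Ube2l6 by 1.22 and 1.55. Apol9a and Apol9b rose by 1.73 and 2.80. Epsti1 went from 7 to 63 reads in OKS + DsRed and from 0 to 12 in OKS + FoxO6.

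Ifng and Ifnb1 had 0 reads in each of the 4 libraries, and the 13 interferon alpha genes had 0 reads over all 10, where a count of 0 allows up to 3 reads in a library. The receptor and kinase genes were read at moderate levels. Ifngr1 had a TPM of 18.7 and 22.8 in OKS + DsRed and 25.2 and 25.0 in OKS + FoxO6, and Ifnar1 had 53.5 and 53.5 in OKS + DsRed and 75.3 and 59.1 in OKS + FoxO6. Jak1 had 70.6 and 67.2 in OKS + DsRed and 99.98 and 87.0 in OKS + FoxO6. These genes were examined after the interferon lists had been read.

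The promoters of the interferon genes are shown because 2 short sequences are known as elements of interferon-responsive promoters. GAAANNGAAA is the core of the interferon-stimulated response element, and TTCNNNGAA is the palindrome of the gamma-activated site. Both were searched on both strands in windows of 300 bases around RefSeq start sites (GRCm38.p6), 250 bases before to 50 after. Their letters can overlap, as they do in Bst2. Of the 30 interferon list genes that rose, 22 had a window, and 14 of the 22 held GAAANNGAAA. Counted by windows this was 58.3% of 24, against 3.44% of all 32851 windows. Of the interferon list genes tested and not called, 11 of 24 genes held it, 39.3% of their windows. TTCNNNGAA was in 25.0% of the windows of the interferon list genes that rose, 25.0% of the windows of those not called and 8.30% of all windows. Over all genes that rose, inside and outside the lists, GAAANNGAAA was in 20.5% of the windows and TTCNNNGAA in 10.7%, and over all genes that fell in 5.41% and 0.0%. The 150 bases before the start site are given on the coding strand, in lower case with the matches to these sequences in capitals. They are chr11:49064213-49064362 (minus strand) for Tgtp2, chr11:58199406-58199555 (plus) for Igtp, chr8:71537473-71537622 (minus) for Bst2, chr4:156200819-156200968 (minus) for Isg15, chr19:34640739-34640888 (plus) for Ifit1 and chr2:122147537-122147686 (plus) for B2m.
Tgtp2: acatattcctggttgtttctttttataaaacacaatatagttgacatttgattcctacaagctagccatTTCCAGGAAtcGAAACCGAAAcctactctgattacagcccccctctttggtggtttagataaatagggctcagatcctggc
Igtp: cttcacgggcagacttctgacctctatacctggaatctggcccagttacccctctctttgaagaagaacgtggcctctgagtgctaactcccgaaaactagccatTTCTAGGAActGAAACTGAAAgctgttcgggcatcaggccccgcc
Bst2: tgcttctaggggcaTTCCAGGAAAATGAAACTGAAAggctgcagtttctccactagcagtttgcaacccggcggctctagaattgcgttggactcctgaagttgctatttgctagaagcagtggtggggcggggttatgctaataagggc
Isg15: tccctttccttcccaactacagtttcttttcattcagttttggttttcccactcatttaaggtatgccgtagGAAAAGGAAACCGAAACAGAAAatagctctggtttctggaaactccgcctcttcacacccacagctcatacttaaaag
Ifit1: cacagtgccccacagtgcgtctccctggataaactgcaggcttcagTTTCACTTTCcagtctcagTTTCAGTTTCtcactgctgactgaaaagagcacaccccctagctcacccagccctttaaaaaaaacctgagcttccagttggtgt
B2m: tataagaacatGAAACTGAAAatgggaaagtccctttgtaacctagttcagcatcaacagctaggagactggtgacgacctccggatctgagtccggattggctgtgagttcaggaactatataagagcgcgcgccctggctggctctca
Tgtp2 and Igtp held a TTCNNNGAA match just before a GAAANNGAAA match, and Ifit1 held a pair of GAAANNGAAA matches on the opposite strand. A match describes the letters and is not a measured binding site.

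Macrophage markers were read beside the interferon genes, since macrophages carry many of these transcripts. The 9 defining markers (Ptprc, Cd14, Adgre1, Csf1r, Cd68, Lyz1, Lyz2, Fcer1g and Tyrobp) summed to 49 and then 21 reads in OKS + DsRed and to 31 and then 28 in OKS + FoxO6. Most of these reads were of Cd68, a lysosomal protein found in many cells, with 39, 16, 27 and 24. Tyrobp was at 0 in all 4 libraries, and Ptprc had 2, 1, 1 and 3 reads. In the longer list of 15 markers, 3 were tested and 1 was called. This was Mpeg1, a pore-forming protein of phagocytes, with 57 and 167 reads in OKS + DsRed and 3 and 10 in OKS + FoxO6. Without OKS + DsRed day 5 its log2 change was −0.01. Laptm5, a lysosomal protein of blood cells, had 63 and 115 reads in OKS + DsRed and 25 and 71 in OKS + FoxO6, a log2 change of 1.16 ± 0.23 with an edgeR adjusted p of 0.051, and Cd68 had −0.70 ± 0.37 with 0.52. The summed TPM of the 15 markers was 116 and 154 in OKS + DsRed and 37.4 and 58.0 in OKS + FoxO6, and the part of such cells in the interferon result was not tested.

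Of 22 epithelial genes tested, 3 were called higher, namely Dsg2, Epcam and Cdh1, and 0 lower, with a median log2 change of 0.93 against 0.00 over all genes, and 14 of the 22 were higher in both arms at any size, as were 29.9% of all genes tested. Cdh1 (E-cadherin, chromosome 8, 106603351 to 106670246), the adhesion protein of adherens junctions, had a TPM of 36.7 and 106 in OKS + DsRed and 2.55 and 14.0 in OKS + FoxO6. Its log2 change was 1.78 ± 0.23 with an edgeR adjusted p of 0.013. Epcam (chromosome 17, 87635979 to 87651129) had 18.7 and 103 in OKS + DsRed and 3.11 and 23.5 in OKS + FoxO6, and a log2 change of 2.59 ± 0.28 with an edgeR adjusted p of 0.0068. Both genes were lower in OKS + FoxO6 than in OKS + DsRed on both days. The log2 CPM difference was 1.53 in OKS + DsRed and 2.32 in OKS + FoxO6 for Cdh1, and 2.41 and 2.51 for Epcam. Dsg2, a desmosomal cadherin, went from 6 to 38 reads and from 7 to 41 reads.

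The other roles of the epithelial list gave 0 calls among 2 simple keratins, 5 tight junction genes and 3 proteases and inhibitors, with medians of 1.01, 0.88 and 1.28. Lsr, of tricellular tight junctions, had 1.66 ± 0.40 with an edgeR adjusted p of 0.099. The desmosome genes gave 1 call among 7 and a median of 0.01, and Dsc2 and Perp had −0.84 ± 0.31 and −0.26 ± 0.16 with edgeR adjusted p of 0.30 and 0.60. The roles of the list thus had different medians. DESeq2 called 2 of the 3 genes, limma-voom 2 and the 10-library fit 0, and the median was 1.45 without OKS + FoxO6 day 5. Lgals7, of stratified epithelium, went from 11 to 95 reads and from 1 to 9 reads. Outside the lists, chosen after their values were seen, were Lama5 and Agrn, of basement membranes, at 2.33 and 1.05, and Pkp1, a desmosomal plaque protein, at 1.41.

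The pluripotency list gave 5 calls among 15 genes tested, all higher, with a median log2 change of 0.99, and 18 of its 33 genes had too few reads to pass the filter. DESeq2 called 3 of the 5, limma-voom 4 and the 10-library fit 2, and Gdf3 was called by none of these. Sall4, a zinc finger factor of the pluripotency network (chromosome 2, 168748332 to 168767943), went from 5 to 57 reads in OKS + DsRed and from 2 to 59 in OKS + FoxO6. The fold was 12.2 in OKS + DsRed with a 95% counting interval of 4.96 to 39.2, and 28.2 in OKS + FoxO6 with 7.47 to 238. Among the genes that rose it had the largest change in the arm that changed less, and it was among the 14 genes called in the 10-library fit. This rank depends on the prior count of 2, at 3.23 against 3.15 for Gm6741. Gm6741 had 0 reads at day 3 in both arms, so its fold has no upper limit. Its TPM at day 5 was close in the arms, at 16.8 and 11.8.

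The other members called were Tdh, Alpl, Gdf3 and Tfcp2l1. Tdh, the threonine dehydrogenase of mouse pluripotent cells, had a TPM of 69.1 and 179 in OKS + DsRed and 12.98 and 75.0 in OKS + FoxO6. Alpl, the alkaline phosphatase used as an early marker of reprogramming, had 22.8 and 92.5 in OKS + DsRed and 5.01 and 37.7 in OKS + FoxO6. Gdf3, a secreted factor of the TGF beta family, went from 8 to 58 reads and from 5 to 23, and Tfcp2l1, a factor of the naive network, from 97 to 208 and from 214 to 394. Tfcp2l1 was the one of the 5 with the higher TPM in OKS + FoxO6 on both days. Zfp42 (Rex1) went from 5 to 20 reads and from 2 to 17, and its log2 change of 2.42 ± 0.62 had an edgeR adjusted p of 0.12.

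Genes of the late network were at the limit of this depth. Nanog had 1 and 22 reads in OKS + DsRed and 0 and 2 in OKS + FoxO6, and Nr5a2 had 1 and 26 and 0 and 6. Esrrb had 1 and 2 reads in OKS + DsRed and 4 and 5 in OKS + FoxO6, and Dppa5a had 0, 2, 0 and 0. These genes had too few reads for the filter on low counts and were not in the main test. Without the filter, Nr5a2 and Nanog had log2 changes of 4.77 and 4.35 with edgeR adjusted p of 0.0025 and 0.058. Esrrb and Dppa5a had 0.50 and 3.18 with edgeR adjusted p of 0.97 and 0.91. That fit took the spread as known, so its p-values do not measure the spread between the arms. None of the 20 germline genes examined was tested. The transduced factors stayed high and passed no test. Pou5f1 (Oct4) had a TPM of 4569 and 3720 in OKS + DsRed and 5464 and 7071 in OKS + FoxO6, with a log2 change of 0.04 ± 0.15, and Sox2, Klf4 and Foxo6 had −0.25 ± 0.13, −0.07 ± 0.14 and −0.07 ± 0.18. Reads of the viruses and of the endogenous genes cannot be told apart in these counts.

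**Figure D3:**
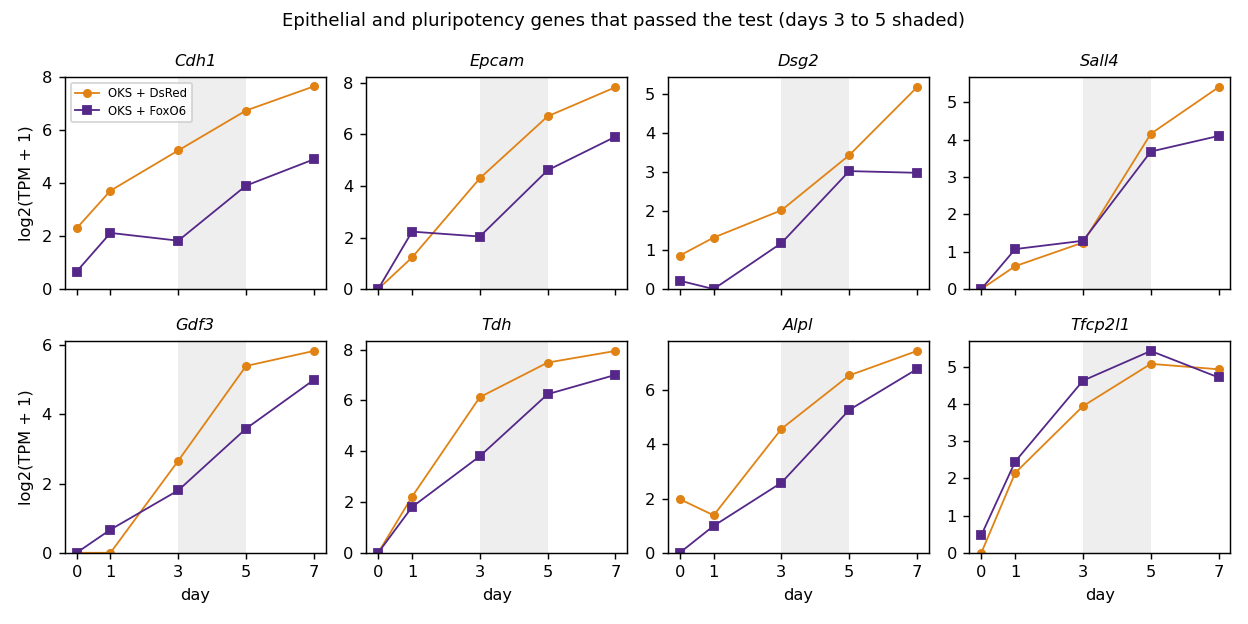
Level of the 8 epithelial and pluripotency genes that passed the test, as log2(TPM + 1) against the day, 1 library for each point and a line for each arm. All 8 are higher at day 5 than at day 3 in both arms, and Epcam, Sall4, Gdf3 and Tdh are at 0 on day 0 in both.

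Of 47 mesenchymal genes tested, 7 were called lower, 0 higher and 40 had no call, with a median log2 change of −0.38 against 0.00 over all genes, and 33 of the 47 were lower in both arms at any size against 4 that were higher. Over all genes tested, 29.3% were lower and 29.9% higher in both arms at any size. The medians were −0.44 in OKS + DsRed and −0.37 in OKS + FoxO6. By role, the 9 collagens had a median of −0.71 with 1 call, the 15 matrix proteins and enzymes −0.63 with 4 calls, the 6 contractile genes −0.58 with 1 call and the 8 transcription factors −0.24 with 0 calls. DESeq2 called 1 of the 7 genes, limma-voom 6 and the 10-library fit 0. In fits of the other 9 libraries, which hold other days and test other genes, the median was −0.25 without OKS + DsRed day 5 and −0.55 without OKS + FoxO6 day 5.

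Col3a1, a fibrillar collagen of loose connective tissue (chromosome 1, 45311538 to 45349706), had a TPM of 379 and 194 in OKS + DsRed and 181 and 117 in OKS + FoxO6. It fell by 0.86 ± 0.14 on the log2 scale with an edgeR adjusted p of 0.026. Lox and Loxl2, which cross-link collagen, had 25.7 and 9.99, and 34.9 and 12.2, in OKS + DsRed, and 50.7 and 23.9, and 31.6 and 15.0, in OKS + FoxO6. At day 0 they had 349 and 165 in OKS + DsRed and 533 and 194 in OKS + FoxO6, so most of the loss came before day 3. Bgn (biglycan), a small proteoglycan, had 45.2 and 20.3 in OKS + DsRed and 74.0 and 34.0 in OKS + FoxO6, from 1319 and 1378 at day 0. Tnc (tenascin C), a matrix protein of wounds and embryos, had 21.1 and 5.81 in OKS + DsRed and 34.2 and 17.1 in OKS + FoxO6.

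Cdh11, a mesenchymal cadherin, went from 243 to 73 reads and from 170 to 103. Tpm2, a tropomyosin of contractile fibres, went from 40 to 8 reads and from 39 to 9, a log2 change of −2.18 ± 0.39. Fn1 (fibronectin) and Col6a2 did not share the direction, with log2 changes of 0.32 ± 0.13 and 0.35 ± 0.18 and edgeR adjusted p of 0.35 and 0.49. Loxl1 also went up, from 15 to 20 reads and from 6 to 17. Its log2 change was 0.89 ± 0.50 with an edgeR adjusted p of 0.55. Twist2, which was in the list and in the study's genes, had −0.98 ± 0.46 with an edgeR adjusted p of 0.44, from 18 to 12 reads and from 31 to 12.

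**Figure D4:**
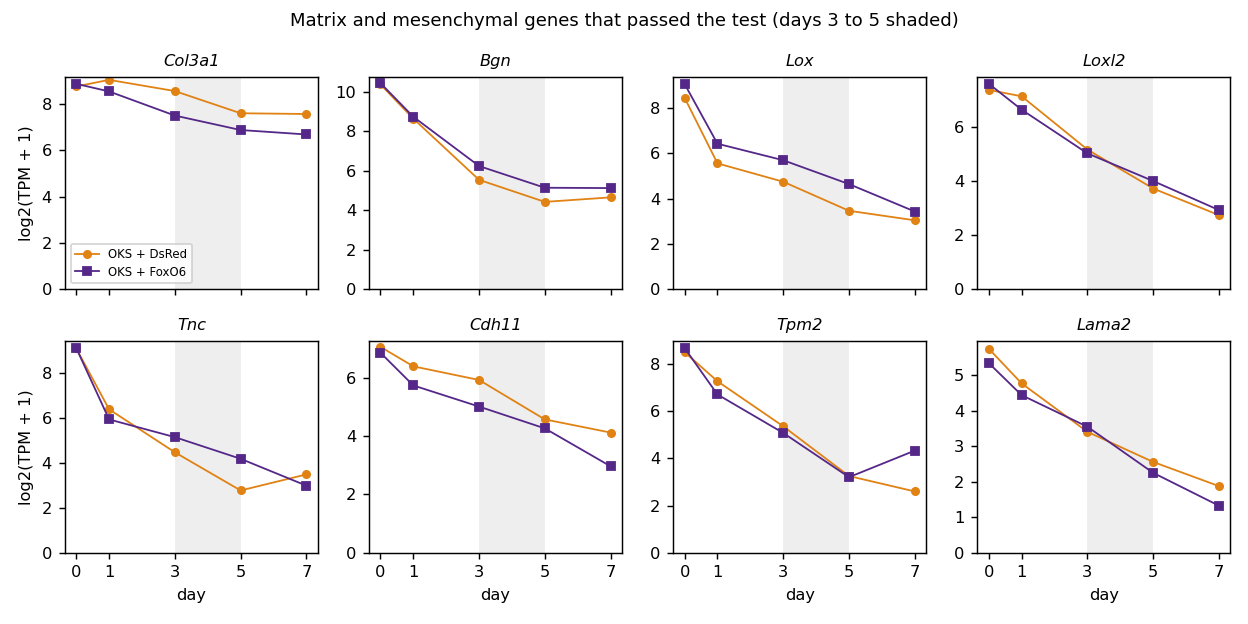
Level of 8 matrix and mesenchymal genes that passed the test, as log2(TPM + 1) against the day, 1 library for each point and a line for each arm. All 8 are lower at day 5 than at day 3 in both arms and were highest at day 0 or day 1.

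Outside the lists, other matrix and signalling genes fell and are named after their values were seen. The basement membrane genes Lama2, Lamb1 and Nid1 fell by 1.92, 1.06 and 0.90 on the log2 scale, and the proteoglycan Vcan by 1.09. Lama5 and Agrn, also of basement membranes, went the other way, at 2.33 and 1.05. Tgfb1, the founding ligand of its family, had a TPM of 57.0 and 26.9 in OKS + DsRed and 56.3 and 24.3 in OKS + FoxO6, a log2 change of −1.15. In the list of TGF beta and YAP targets, 0 of 13 genes were called by edgeR, with a median of −0.43, while 6 were lower at an unadjusted p under 0.05 and 9 were lower in both arms. The shares over all genes tested were 5.86% and 29.3%. Thbs1, a target of both pathways, had −0.85 ± 0.18 with an edgeR adjusted p of 0.058. Fst, which binds activin, fell by 1.27, the guidance ligands Slit2 and Slit3 by 0.98 and 1.18, and the annexins Anxa1 and Anxa8 by 1.01 and 1.33. Neat1, the scaffold RNA of paraspeckles, fell by 0.75. Hey2, a Notch target, went from 138 to 42 reads and from 41 to 17.

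A few called genes had no reads in a whole group or overlap a neighbour. Gm13835, a pseudogene within Lncpint on chromosome 6, had 65 and 20 reads at day 3 and 0 and 0 at day 5, at least 28.2-fold lower against 3 reads over both libraries. Gm6741, a pseudogene on chromosome 17, had 0 and 0 reads at day 3 and 15 and 19 at day 5, at least 11.4-fold higher on the same floor. Gm20390 spans Nme1 and Nme2, and Gm20716 spans Adnp and Dpm1, on the same strand, so their reads may be shared with those genes. Cyp2b23, a cytochrome P450, went from 1 to 39 reads in OKS + DsRed, a ratio of 41.9 with a 95% counting interval of 7.09 to 1698, and from 0 to 14 reads in OKS + FoxO6. Dmgdh and Bhmt2, of betaine and one-carbon metabolism, rose by 2.73 ± 0.31 and 4.15 ± 0.52. These intervals cover counting error and no other source of error.

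Other lists gave few calls. Serping1, the inhibitor of C1, and the C1 protease C1ra were the 2 calls among 8 complement and acute phase genes, at 1.52 ± 0.16 and 1.04 ± 0.20, with a list median of 1.11. The negative feedback regulators of Wnt signalling Nkd1 and Notum were the 2 calls among 7 Wnt targets. Nkd1 had a TPM of 22.1 and 153 in OKS + DsRed and 13.1 and 27.6 in OKS + FoxO6, while Axin2 had 0.50 ± 0.22 with an edgeR adjusted p of 0.40. Slc16a3, a lactate exporter, was the 1 call among 22 glycolysis genes, with 11 and 74 reads in OKS + DsRed and 1 and 3 in OKS + FoxO6. Of these called genes, DESeq2 called Serping1 and Nkd1, limma-voom Serping1, Nkd1, Notum and Slc16a3, and the 10-library fit Nkd1. C1ra was called in none of these fits. The 42 S phase genes and the 52 G2/M genes gave 0 calls each in edgeR, with medians of 0.23 and 0.23. At an unadjusted p under 0.05 in edgeR, 7 of the 42 and 6 of the 52 were higher, both above the 6.41% of all genes tested. At any size, 27 and 28 were higher in both arms and 1 and 4 lower. Over all genes tested, 29.9% were higher and 29.3% lower in both arms. By arm the medians were 0.40 and 0.38 in OKS + DsRed and 0.14 and 0.07 in OKS + FoxO6. The 20 CDK inhibitors and p53 targets gave 0 calls in edgeR and a median of −0.31. At an unadjusted p under 0.05 in edgeR, 5 of the 20 were lower, above the 5.86% of all genes tested. At any size, 12 were lower in both arms and 1 was higher. Cdkn1a (p21) had −0.48 ± 0.13 with an edgeR adjusted p of 0.15. The lists of Hox, Polycomb, DNA methylation, ERK feedback, immediate early, cholesterol, lysosome, stress, inflammatory, trophoblast, endothelial and neural genes also gave 0 calls.

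**Figure D5:**
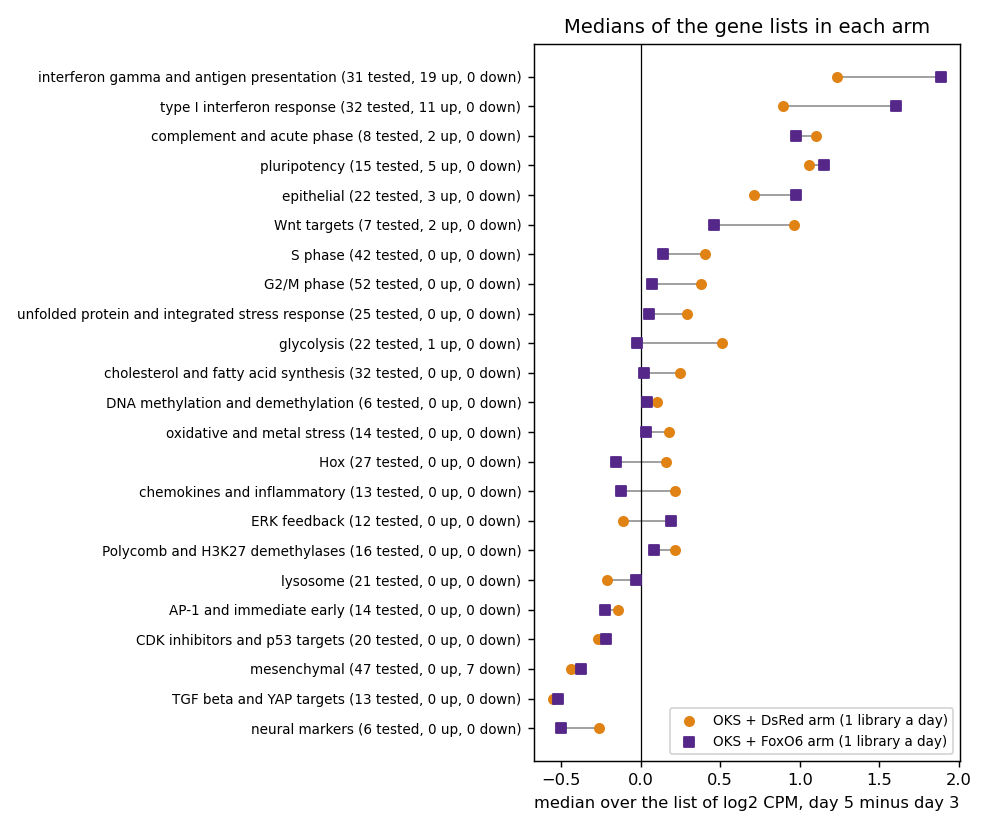
Median over each gene list of the log2 CPM at day 5 minus day 3, with OKS + DsRed as circles and OKS + FoxO6 as squares, for lists with at least 5 genes tested, with the number tested and called beside each name. The 2 interferon lists have the highest medians in OKS + FoxO6, at 1.89 and 1.60, and the mesenchymal list is at −0.44 and −0.37.

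The size of the step was set beside the neighbouring steps with the same test on 4 libraries each. From day 0 to day 1, 536 genes were higher and 528 lower, and from day 1 to day 3, 594 and 461. The step from day 3 to day 5 gave 136 and 38, and that from day 5 to day 7 gave 27 and 11. By size alone the steps were closer. Genes at least 2-fold higher in both arms numbered 275, 197, 191 and 79 over the same steps in order, and genes at least 2-fold lower numbered 284, 100, 58 and 55. These comparisons share libraries and are not independent, and the number of calls also depends on how well the arms agree in each step. A test of the difference between steps in the 10 libraries called 0 genes against day 1 to 3 and 0 against day 5 to 7 in edgeR, with 401 and 430 genes at an unadjusted p under 0.05. DESeq2 called 1 gene and 3 genes. No gene is therefore given as particular to this step. The smallest p against the step before was that of Myh2, a difference of −3.30 ± 0.48 with an edgeR adjusted p of 0.29. Against the step after, the smallest p was that of Gm20716, with a difference of −4.15 ± 0.67, followed by Tgtp2 (3.95 ± 0.73), Rpl30-ps9 (8.81 ± 1.30) and Rnf213 (2.57 ± 0.49), each with an edgeR adjusted p of 0.76.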

How the data were processed

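RSEM with Bowtie2 was run by the authors on the GENCODE M13 transcriptome (mm10 per the labels), and the deposited values are expected counts per gene, not normalized, and TPM. The labels name a VAHTS mRNA-seq kit and the methods a TruSeq kit, and strand use in counting is not given in the sources used here. The deposited table of the series holds 48476 genes, and 2124 others, at most 0.312% of any library, were not used. Expected counts were rounded and tested with edgeR 4.0.16 (R 4.3.3; TMM, filterByExpr, quasi-likelihood test, day with arm as block, 4 libraries, Benjamini-Hochberg), and SE was taken from the F statistic. Changes per arm are log2 CPM with a prior count of 2. DESeq2 1.42.0 and limma 3.58.1 were alternatives, and deposited effective lengths served for the length trend. The fit was tested on simulated data. Coordinates are GENCODE M21 on GRCm38. Depth was 1357802 to 2059623 counts, so genes of few reads are imprecise. With 1 library per arm and day, p-values measure the spread between the arms, which may be technical.

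Genes named were drawn from the 12 called genes per direction with the largest change in the less changed arm and from the genes the study names. They were also drawn from up to 4 list members per direction, every called member, and for step differences the 5 smallest p per direction. Not every gene so selected is printed, and genes named outside this rule are marked. The members, lists and tests were chosen with earlier results of these data known. 1 gene of the lists is not reported here, though the list counts and medians include it.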

Additional observations from a re-analysis of the deposited data

Results flagged for a closer look

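Of the listed genes, 3 moved at least 2-fold in opposite directions in the arms between days 3 and 5, as log2 CPM at day 5 minus day 3. Eno3, a muscle enolase, had 1.28 in OKS + DsRed and −1.11 in OKS + FoxO6. Fut9, a fucosyltransferase, had −2.9 and 1.18. Serpina3n, an acute phase protease inhibitor, had 2.74 and −1.22. Each arm has 1 library a day, and the difference between the arms was not tested. Over all genes tested, 16 were at least 2-fold higher in OKS + DsRed and 2-fold lower in OKS + FoxO6, and 18 the reverse.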

How the results depend on the processing

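The higher and lower calls, 136 and 38, were 109 and 28 with RLE normalization, 195 and 69 with upper quartile, 376 and 251 without a filter (19732 genes tested, lower genes 40% of calls), 181 and 60 with a mean CPM of at least 10, 65 and 10 with DESeq2, 261 and 170 with the length trend removed, and 14 and 1 with all 10 libraries. Without a filter edgeR took the spread as known (infinite prior degrees of freedom), so those p-values do not measure the spread between the arms. The arm is the pairing in the reference fit, and without it as a block both were 0, with 277 genes at an unadjusted p under 0.05 in edgeR. Leaving out each library gave 0 to 7 higher and 0 to 0 lower. All calls of the reference fit were kept with upper quartile, no filter, the length trend removed and the earlier edgeR quasi-likelihood method, the last added after seeing the data. Of 72 named called genes, 36 kept their call in DESeq2, 61 in limma-voom and 6 with all 10 libraries, and Mpeg1 alone turned sign, at −0.0105 without OKS + DsRed day 5. Genes 2-fold lower in both arms numbered 89 with log2(TPM + 0.1) and 37 with a prior count of 5, against 58. DESeq2 called 1 gene for the difference from the step before and 3 from the step after, against 0 and 0. The pluripotency median was 1.11 without a filter, 0.876 with a mean CPM of at least 10, 1.23 with all 10 libraries and 0.818 to 1.39 with a library left out (1.24 without OKS + FoxO6 day 3). With log2(TPM + 1) the epithelial median was 0.670 and the mesenchymal −0.318. With a library left out, the medians ran from 1.10 to 1.45 for epithelial genes (1.18 and 1.21 without the day 3 library of OKS + DsRed and OKS + FoxO6), −0.549 to −0.255 for mesenchymal (−0.454 without OKS + DsRed day 3), 0.622 to 2.19 for type I interferon and 0.864 to 2.32 for interferon gamma. The cause of these shifts was not tested. Genes of few reads are limited by this depth.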
